A study of Mus musculus with 3 samples.

Results

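The genes followed here carry bile acids into the hepatocyte and join them to an amino acid. They are 8 of the 19712 named genes on the arrays, read by 10 of 41174 probes: the uptake carriers Slc10a1, Slco1a1, Slco1a4, Slco1b2 and Slco2b1, and the enzymes Slc27a5, Baat and Amacr. They were chosen by function, with earlier results of these data known, and probes were matched to them by accession, then by gene symbol or alias. Slco1a1 and Baat have 2 probes each and the other genes 1. RNA samples of 3 tissues were compared, all from C57BL/6 mice without a stated treatment or mutation: adult liver from mice aged 12 weeks, fetal liver of gestation day 13.5, and bone marrow. The protocol does not settle whether the marrow came from mice of that age, and it gives neither sex nor the number of animals. Each tissue was hybridised to 1 Agilent 1-colour array, so no difference has a replicate check, and no test or p-value is given.

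Bile acids made in the liver return to it from the gut in portal blood. Slc10a1 (also called Ntcp) takes up conjugated bile acids together with sodium, and the organic anion transporting polypeptides of the Slco family take up bile acids and many other anions without sodium. Slc27a5 couples bile acids to coenzyme A, and Baat exchanges the coenzyme A for an amino acid such as taurine. Amacr turns the methyl group of side-chain intermediates into the configuration that peroxisomal oxidation needs. Conjugated bile acids are more soluble and cross membranes poorly without carriers. In mouse liver, Slco1a1 is known to be higher in males and Slco1a4 in females.

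RefSeq promoter windows on build GRCm38.p6, reaching 250 bases upstream of a transcription start, were at hand for 5 of the 8 genes. The windows of Slco2b1, also higher in adult liver, and of the first Slc10a1 start held no TATAAA and are not shown. Windows of 4 carriers that were higher in adult liver than in fetal liver (values below) are shown so that their letters can be compared. They are Slco1b2 with 250 upstream bases, and Slco1a1, Slco1a4 and the second of 2 starts of Slc10a1 with 150. All run 5′ to 3′ on the gene's strand and end at the base before the start, and capitals mark TATAAA in either orientation (TTTATA).
Slco1b2, chr6:141629268-141629517, plus strand: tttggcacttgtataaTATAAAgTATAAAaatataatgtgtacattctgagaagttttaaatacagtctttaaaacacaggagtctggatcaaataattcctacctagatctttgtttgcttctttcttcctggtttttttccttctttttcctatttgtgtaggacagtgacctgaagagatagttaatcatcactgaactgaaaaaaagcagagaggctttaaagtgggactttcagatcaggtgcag
Slco1a1, chr6:141946963-141947112, minus strand: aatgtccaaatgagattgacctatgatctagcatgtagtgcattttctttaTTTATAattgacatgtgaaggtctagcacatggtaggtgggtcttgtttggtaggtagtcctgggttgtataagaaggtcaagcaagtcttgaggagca
Slco1a4, chr6:141856221-141856370, minus strand: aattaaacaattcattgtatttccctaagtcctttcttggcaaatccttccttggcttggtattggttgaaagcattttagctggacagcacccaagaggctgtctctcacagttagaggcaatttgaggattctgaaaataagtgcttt
Slc10a1, chr12:80968706-80968855, minus strand: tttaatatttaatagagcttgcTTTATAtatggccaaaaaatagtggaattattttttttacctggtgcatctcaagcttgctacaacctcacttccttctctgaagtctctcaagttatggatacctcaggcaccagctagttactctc

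TATAAA was found in 3 of the 8 windows of these genes, against 13.6% of all 32851 promoter windows, at -128 in Slc10a1, at -209 (beyond the bases shown) and -99 in Slco1a1, and at -234 and -227 in Slco1b2. The HNF4 motif CAAAGTCCA (0.475% of all windows) and the C/EBP palindrome TTGCGCAA (0.183%) matched none of the 8. These motifs were searched on both strands, no match overlapped another, and a match describes letters in a window, not a bound site.

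Signals are Agilent's background-subtracted spot intensities in arbitrary units. Before any fold was taken, each array was divided by its 75th percentile over gene spots, which was 296.5 in adult liver against 386.0 in fetal liver and 894.5 in bone marrow, so a fold is not the plain ratio of 2 signals. Where a probe failed to rise well above background in 1 of 2 tissues, the fold is a lower bound set by whichever is higher, the signal of the dim probe or the lowest scaled signal that was well above background on its array. Adult liver had 12886 named genes well above background, fetal liver 13870 and bone marrow 13936. In all 3 tissues this held for 4 of the 8 genes, against 11688 of the named genes (59.3%). Within an array, repeated probes varied by a median of 3.70% to 4.79%. Tissue labels were set against marker genes. Albumin (Alb) had signals of 293000 in adult liver and 67900 in fetal liver but was not well above background in bone marrow, at 6.21. The summed relative level of 6 erythroid markers was 1.26 in adult liver against 607 in fetal liver and 355 in bone marrow. For 6 neutrophil markers it was 2.71 in adult liver against 143 in fetal liver and 1537 in bone marrow.

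All 8 genes were at least 4-fold higher in adult than in fetal liver. Among all 14186 genes that could be compared, 26.2% differed at least 4-fold, 14.1% being higher in adult liver. The median of the 8 log2 differences was 7.42, a 171-fold difference with 1 bound counted at its value, against -0.06 for all genes. Set against bone marrow, adult liver was again at least 4-fold higher for all 8, with a median of 6.92 on the log2 scale, or 121-fold, and 4 bounds. In that comparison 33.8% of 14245 genes differed at least 4-fold, 18.8% being higher in adult liver, and the median of all genes was 0.09. Adult liver lay at least 4-fold above both other tissues for each of the 8, and for 11.8% of 13727 genes. With spike-in scaling Slco1a4 and Slco2b1 did not reach 4-fold above bone marrow, at 1.86 and 1.67 on the log2 scale. In bulk tissue, fewer cells of a type and less RNA per cell cannot be told apart. Hepatocyte markers were higher in adult liver too: 7 of 7 named ones were higher in adult than in fetal liver by a median of 10.3-fold, and their summed relative level was 1546 in adult liver against 195 in fetal liver and 0.454 in bone marrow, with Alb alone at 988 in adult liver and 176 in fetal liver. The part of hepatocyte content in the differences below was not tested. Measured between the same arrays, Alb, Ttr, Apoa1 and Apob, which encode plasma proteins, were higher in adult than in fetal liver by 2.49 to 3.37 on the log2 scale. The 8 uptake and conjugation genes spanned 3.57 to 11.62. With another background correction (normexp) Slco1a4 came to 2.53 and Alb to 2.45. The median of the 7 hepatocyte markers was then 3.23, so Slco1a4 lay below that median. The later hepatocyte enzymes Tat, Cps1 and Cyp2e1 stood at 8.20, at least 11.42 and at least 11.81.

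**Figure D1:**
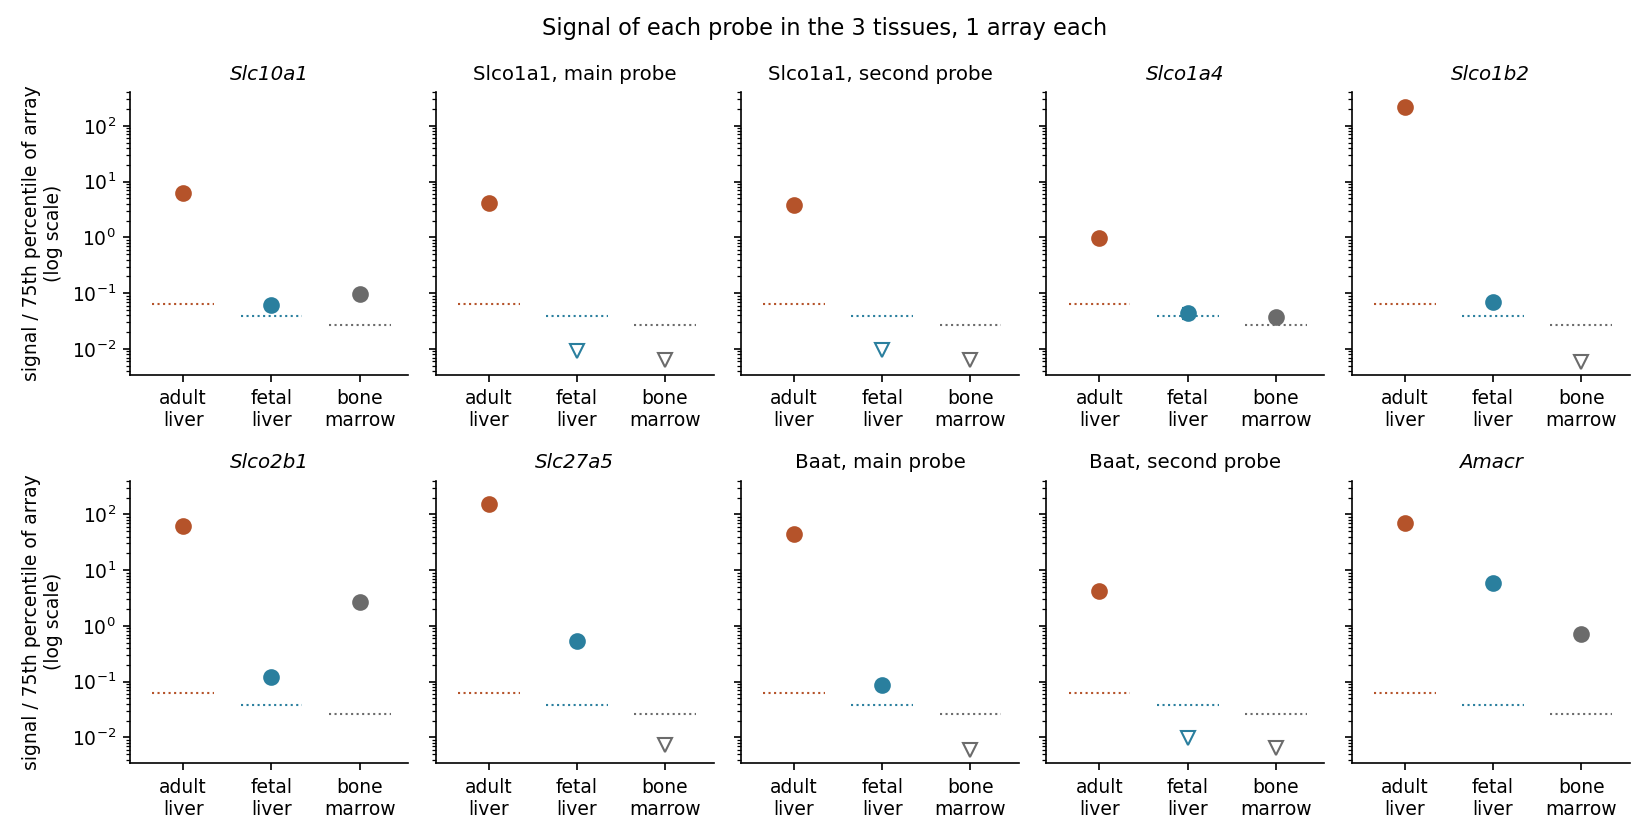
Processed signal of each of the 10 probes divided by the 75th percentile of its array (vertical log axis) in adult liver, fetal liver and bone marrow, 1 array each. Filled circles are signals well above background, open triangles are signals that are not, dotted lines mark the lowest signal well above background on each array, and adult liver is highest in every panel; the marrow level of Slco2b1 stands 22.2-fold above its fetal level.

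Slc10a1, the sodium-dependent carrier, was read by a probe at chr12:82061470-82061529 on the minus strand of build mm9, the build of all probe positions given here. Its signal was 1820 in adult liver against 23.5 in fetal liver and 87.3 in bone marrow, each well above background. Adult liver was 100.8-fold above fetal liver, a log2 difference of 6.66 ± 0.28, where the error is the scanner's own error of the 2 spots and covers no difference between animals. That difference was 4.70 with normexp and 5.88 with the authors' deposited table, shifts larger than the scanner's error. Adult liver was 62.9-fold above bone marrow (5.97 ± 0.22), a value that was 5.05 with normexp. After scaling, fetal liver was the lowest of the 3, with bone marrow 1.60-fold higher (-0.68 ± 0.30), but that order turned round with normexp, where the fetal value was higher by 0.35 on the log2 scale. The fetal signal is close to the lowest value well above background on that array, 15.0.

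Slco1b2 (Oatp1b2), the mouse counterpart of human SLCO1B1 and SLCO1B3, is a hepatocyte carrier of unconjugated bile acids and bilirubin. Its probe lies at chr6:141634476-141634535 on the plus strand, and its signal was 64100 in adult liver against 26.6 in fetal liver and 5.30 in bone marrow, the last not well above background. The adult liver level was 3137-fold above that of fetal liver, a log2 difference of 11.62 ± 0.28, and at least 8159.5-fold above that of bone marrow. Among 12192 genes measured in both livers, the adult-to-fetal difference ranked 9 from the highest. That difference was 9.83 with normexp and 10.90 with the authors' deposited table, shifts larger than the scanner's error. The fetal signal of 26.6 is close to the lowest value well above background on that array, 15.0. Fetal liver exceeded bone marrow by at least 2.60-fold, a bound that could not be formed with spike-in scaling.

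Slco1a1 (Oatp1a1) and Slco1a4 (Oatp1a4) lie on the minus strand beside Slco1b2 and transport bile acids, steroid conjugates and other anions. The main Slco1a1 probe, at chr6:141857413-141857472, gave 1210 in adult liver against 3.57 in fetal liver and 5.55 in bone marrow. Its second probe, at chr6:141857034-141857092, gave 1110, 3.75 and 5.72 in the same tissues. Both probes were well above background in adult liver and in neither of the other tissues, so no order between fetal liver and marrow can be read. By the main probe, adult liver was at least 105-fold above fetal liver and at least 154-fold above bone marrow. The second probe gave at least 96.3-fold and at least 141-fold. With normexp the main probe gave 4.36 and 5.25 on the log2 scale, lower than these bounds.

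Slco1a4 was measured in all 3 tissues, by a probe at chr6:141754675-141754734, with signals of 286 in adult liver against 17 in fetal liver and 33.8 in bone marrow. Adult liver was 21.9-fold above fetal liver (log2 4.45 ± 0.35) and 25.5-fold above bone marrow (4.67 ± 0.30). Fetal liver and bone marrow differed by 0.22 ± 0.41, which is within the scanner's error, and the sign of that difference turned with median, quantile and spike-in scaling. As the labels give no sex, the levels of Slco1a1 and Slco1a4 stand for animals of unknown sex.

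Slco2b1 (Oatp2b1) is a carrier of sulfated steroids and other anions that is known from many tissues besides the liver. Its probe is at chr7:106807008-106807067 on the minus strand, and its signal was 18200 in adult liver against 47.4 in fetal liver and 2440 in bone marrow. Adult liver was 499.9-fold above fetal liver (8.97 ± 0.23) and 22.5-fold above bone marrow (4.49 ± 0.20). With normexp the adult-to-fetal value was 7.70. Bone marrow was thus intermediate, and fetal liver lay 22.2-fold below it (-4.47 ± 0.23), ranking 185 from the lowest among 12926 genes measured in both.

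The activating enzyme Slc27a5 is encoded on chromosome 7, with a probe at chr7:13573924-13573983 on the minus strand. It had a signal of 44600 in adult liver against 208 in fetal liver and 6.43 in bone marrow, where it was not well above background. The level in adult liver exceeded that in fetal liver 279-fold (8.12 ± 0.21) and that in bone marrow at least 5677-fold. Fetal liver was at least 20.3-fold above bone marrow, or 4.35 on the log2 scale; this bound was 2.99 with the authors' deposited table, 2.61 with normexp and 2.02 with spike-in scaling.

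Baat, which completes conjugation, gave 13200 in adult liver against 33.9 in fetal liver and 5.25 in bone marrow with its main probe, for which the file lists the 12 bases chr4:49502345-49502356. The marrow signal was not well above background. Adult liver was 507-fold above fetal liver (8.99 ± 0.25), a log2 difference that was 7.51 with normexp. Adult liver was at least 1680.3-fold above bone marrow, and fetal liver was at least 3.31-fold above marrow. That last bound, 1.73 on the log2 scale, was 0.14 with the mean of both probes and 1.03 with the authors' deposited table, and could not be formed with spike-in scaling. The second probe, at chr4:49502933-49502992, gave 1230 in adult liver against 3.77 in fetal liver and 5.75 in bone marrow. It was well above background in adult liver alone. By this probe adult liver was at least 107-fold above fetal liver and at least 157-fold above bone marrow. Both probes had the same direction, but the low fetal signal of Baat rests on the main one.

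Amacr, the racemase, was well above background everywhere. Its probe at chr15:10925139-10925198 on the plus strand gave 20500 in adult liver against 2240 in fetal liver and 649 in bone marrow. Adult liver was 11.9-fold above fetal liver (3.57 ± 0.20), and 95.3-fold above bone marrow (6.57 ± 0.20). Fetal liver was 8.0-fold above bone marrow (3.0 ± 0.20). The adult-to-fetal value was the smallest of the 8 on the main scaling, but Slco1a4 was smaller with normexp (2.53 against 3.51) and with the authors' deposited table (3.33 against 3.56). The racemase also acts on branched fatty acids such as pristanic acid.

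**Figure D2:**
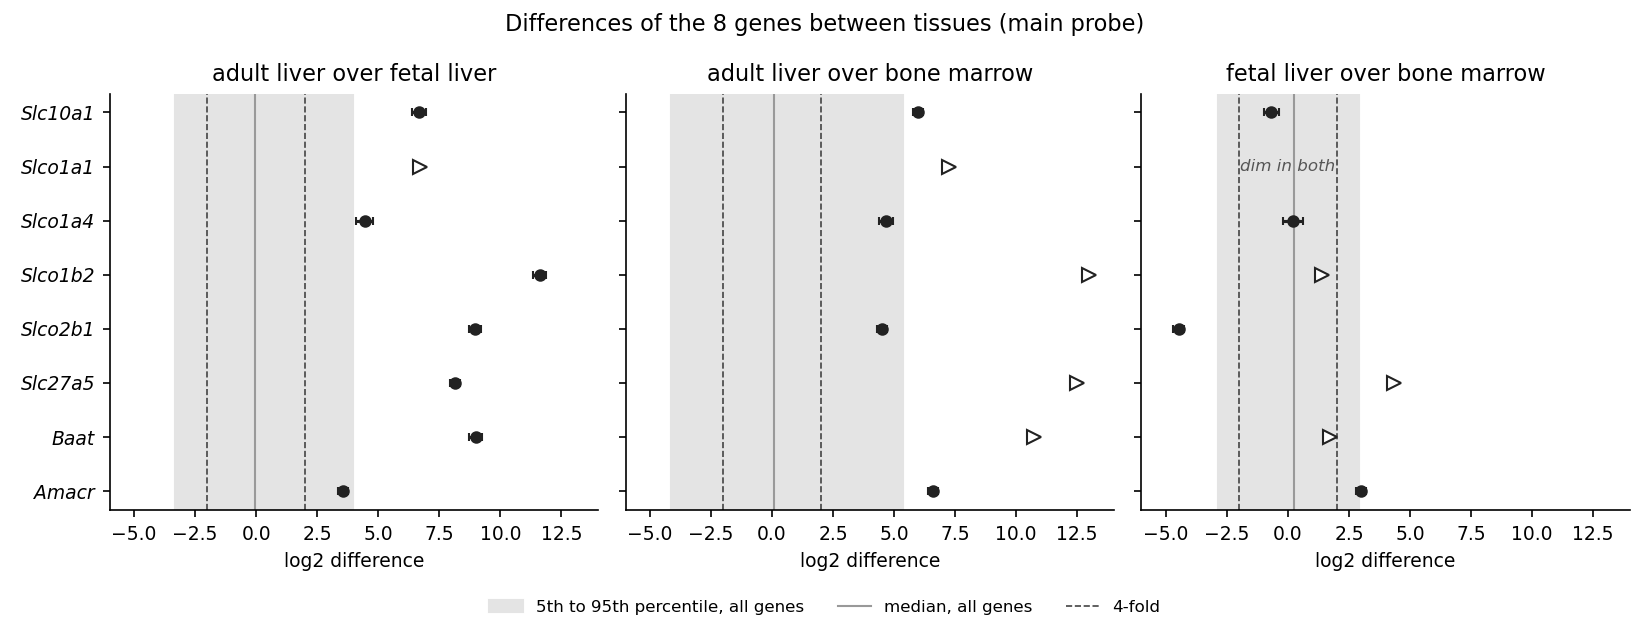
Log2 difference between 2 tissues for each of the 8 genes by its main probe, in 3 panels: adult liver over fetal liver, adult liver over bone marrow and fetal liver over bone marrow. Circles with bars are differences with the scanner's error of the 2 spots, open triangles are lower bounds, grey bands span the 5th to 95th percentile of all genes compared and dashed lines mark 4-fold; 7 genes lie right of the band between the livers and Amacr at 3.57 lies just inside it, while against bone marrow fetal liver scatters from -4.47 for Slco2b1 to at least 4.35 for Slc27a5.

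The size of the adult-to-fetal difference varied widely among the genes. Besides Slco1b2, the ranks on the main scaling among the 12192 genes measured in both livers were 40 for Baat, 42 for Slco2b1 and 63 for Slc27a5. Further down were Slc10a1 at 119, Slco1a4 at 370 and Amacr at 621. Against bone marrow, 4 of the genes were measured on both sides, and among 11933 such genes Amacr ranked 201, Slc10a1 263, Slco1a4 471 and Slco2b1 505.

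Fetal liver and bone marrow gave no common direction. Of the 7 genes that could be compared, Slc27a5 and Amacr were at least 4-fold higher in fetal liver, Slco2b1 was at least 4-fold lower, and the other 4 lay within 4-fold or had a bound under it. Over all 14677 genes compared, 17.6% differed at least 4-fold, 9.33% being higher in fetal liver and 8.30% higher in bone marrow. The median of the 7 was 1.38 against 0.26 for all genes, but over the 4 genes measured in both tissues it was -0.23. With spike-in scaling, which moves the median of all genes between fetal liver and marrow to -2.11, Amacr came within 4-fold at 0.68 and Slc10a1 and Slco1a4 passed 4-fold toward marrow, while Slco1b2 and Baat gave no fold.

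Macrophages are among the cells known to express Slco2b1, so 8 macrophage markers were set beside it. Their summed relative level was 38.7 in adult liver against 39.6 in fetal liver and 38.8 in bone marrow. Most of the fetal sum came from Marco, at 32.4, and the 7 others, summed after the values were seen, came to 31.0 in adult liver against 7.17 in fetal liver and 33.1 in bone marrow. By gene they split: Cd68, Vsig4, C1qa and Cd163 were at least 4-fold lower in fetal liver than in bone marrow, Clec4f and Marco at least 4-fold higher, and Adgre1 and Csf1r within 4-fold. Cd163, a scavenger receptor, had signals of 562 in adult liver against 4.67 in fetal liver and 871 in bone marrow. Vsig4, a complement receptor of resident macrophages, had 592, 3.46 and 386 in the same order; neither was well above background in fetal liver. Clec4f, a Kupffer cell lectin, had 3850, 63.0 and 10.8 and was not well above background in marrow. The part of these cells in the Slco2b1 difference was not tested. With median scaling Adgre1 and Csf1r also passed 4-fold toward marrow, leaving 2 markers higher and 6 lower in fetal liver. With spike-in scaling 6 were lower and none higher, Clec4f and Marco coming within 4-fold, and with normexp Clec4f and Vsig4 came within it, leaving 1 higher and 3 lower.

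**Figure D3:**
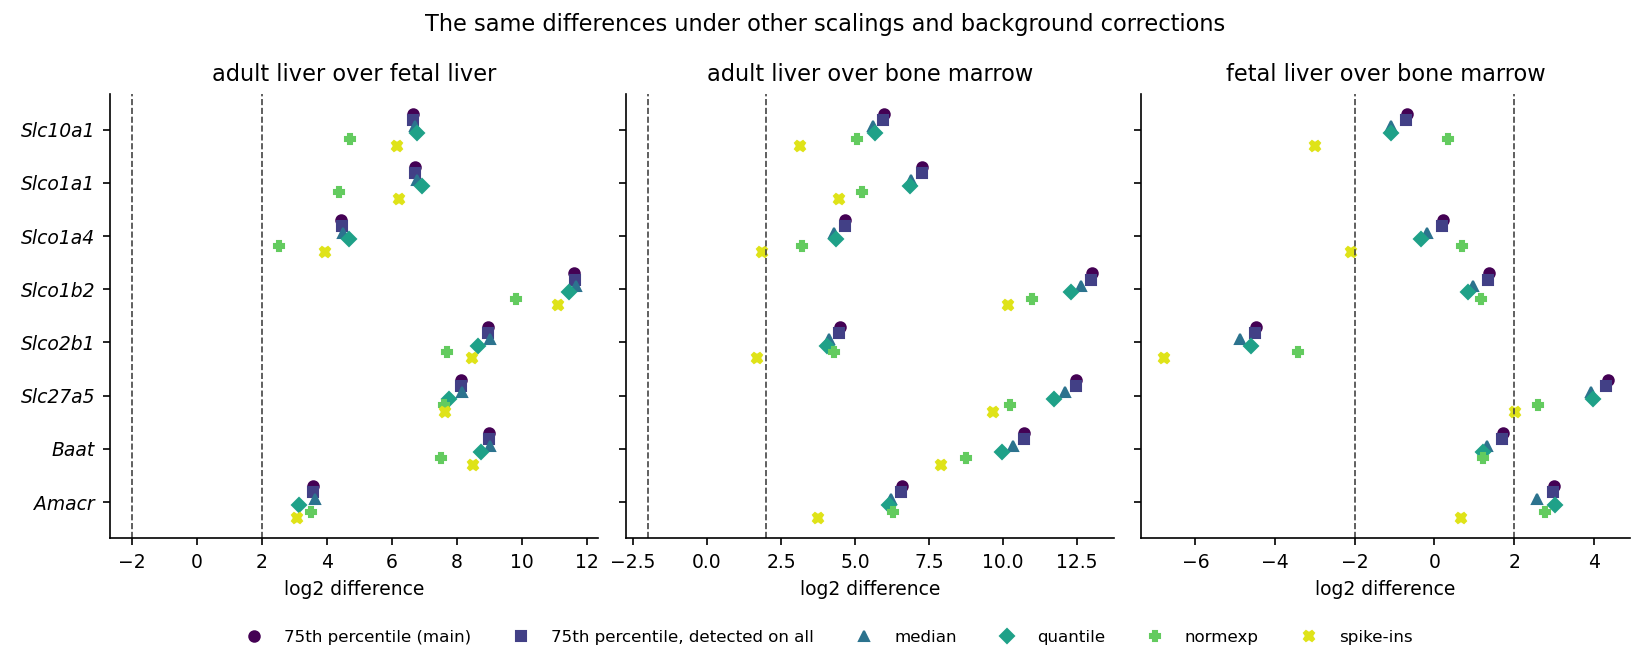
Log2 differences of the 8 genes under 5 alternative scalings or background corrections beside the main one (marker shapes), with dashed lines at 4-fold. Between adult and fetal liver every marker stays right of 4-fold; against bone marrow the spike-in values of Slco1a4 (1.86) and Slco2b1 (1.67) fall inside it; between fetal liver and marrow the markers of Slco1a4 and Slc10a1 lie on both sides of 0.

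Other genes of bile acid handling were read from lists of known function. In bile acid synthesis, 7 of 11 genes were at least 4-fold higher in adult than in fetal liver and none the other way, with a median of 29.7-fold. The 3 with the largest values were Akr1c6 (signals 111000 in adult liver against 106 in fetal liver and 33.9 in bone marrow), the oxysterol 7-hydroxylase Cyp7b1 (9930, 31.6 and 30.7) and Cyp2c70, which makes muricholic acids in mice (35700, 482 and 261). Cyp7a1, the rate-limiting enzyme of the classical pathway, had 861 in adult liver and was not well above background in fetal liver at 7.18 or in marrow at 4.75, so adult liver was at least 74.7-fold above the first and at least 109.6-fold above the second. Cyp8b1, which sets the share of cholic acid, was likewise measured in adult liver alone (342, 3.53 and 5.47). Cyp27a1, the sterol 27-hydroxylase, was not well above background in fetal liver (1070, 3.66 and 86.1) and at least 92.9-fold higher in adult than in fetal liver; as bounds, its value and that of Cyp7a1 may exceed the 96.4-fold of Cyp2c70, and did so with quantile normalization. Against bone marrow the count was again 7 of 11. Between fetal liver and marrow, Akr1c6 (7.25-fold) and Cyp2c70 (4.28-fold) of 8 genes passed 4-fold toward fetal liver, and neither passed 4-fold with spike-in scaling or normexp.

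Peroxisomal side-chain shortening, the pathway Amacr serves, had 5 of 6 genes at least 4-fold higher in adult than in fetal liver, and 5 of 6 against bone marrow (2 of 6 with spike-in scaling). The branched-chain oxidase Acox2 had 9860 in adult liver against 491 in fetal liver and 16.5 in bone marrow, where it was not well above background. The thiolase gene Scp2 had 68200, 2460 and 8980, the bifunctional enzyme Hsd17b4 37400, 3350 and 8040, and the transporter Abcd3 48300, 3510 and 4100 in the same order of tissues. The import receptor Pex5 was 6.51-fold higher in adult than in fetal liver. The thioesterase Acot8 stayed within 4-fold in all 3 comparisons (3830, 3050 and 5730). Between fetal liver and marrow, Acox2 alone of 6 passed 4-fold, at least 48.0-fold higher in fetal liver; with spike-in scaling Hsd17b4, Scp2 and Acot8 were at least 4-fold lower there.

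Among carriers of bile acids and bile lipids out of the cell, 7 of 9 compared were at least 4-fold higher in adult than in fetal liver, with a median of 13.2-fold, though 5 passed with normexp. Of the 7, Abcb4 only just passed, at 4.01-fold. Atp8b1 passed by its main probe, while another gave a bound of 0.91 on the log2 scale and the rest were dim in all 3 tissues. The bile salt export pump Abcb11 had signals of 64100 in adult liver against 1080 in fetal liver and 47.1 in bone marrow. The sterol transporter Abcg5 had 13700, 42.9 and 5.94 in that order, the last not well above background. The basolateral pump Abcc3 was 37.1-fold higher in adult than in fetal liver. Slc51a, the alpha subunit of the organic solute transporter, went the other way: it was not well above background in adult liver at 4.12 and had 122 in fetal liver and 33.2 in marrow, at least 4.96-fold lower in adult liver. That call was lost with normexp, and a second Slc51a probe was dim in all 3 tissues. Against bone marrow 7 of 8 were higher in adult liver and Abcc4 was 5.52-fold lower. With spike-in scaling 5 of 9 were higher and 2 lower, Atp8b1 coming within 4-fold and the lipid flippase Abcb4 turning to -0.36 on the log2 scale. Fetal liver was at least 4-fold above marrow for 4 of 7, namely Abcb11 (53.1-fold), Abcc2 (16-fold), Slc51a (8.52-fold) and Abcg5 (a bound of 4.19-fold); with spike-in scaling 1 of 6 was.

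Of 12 regulators of the pathway compared, 10 were at least 4-fold higher in adult than in fetal liver with a median of 5.66-fold, and 6 with spike-in scaling. The largest were Nr0b2 (SHP), at least 38.9-fold, the bile acid receptor Nr1h4 (FXR), 38.6-fold, and Cebpa, 15.5-fold. The nuclear receptor Nr1h4 had 8470 in adult liver against 286 in fetal liver and 5.80 in bone marrow. Adult liver exceeded bone marrow at least 4-fold for all 12, by a median of 184-fold, and for 9 with spike-in scaling. With median scaling, quantile normalization or normexp the count was 11. In that comparison Hnf4a only just passed, at 2.05 on the log2 scale by its main probe. Another Fgfr4 probe gave 1.67, and the other Klb probe gave no fold. In fetal liver 8 of 11 were at least 4-fold above marrow with a median of 28.0-fold. Among them were Foxa2 with a bound of 160.4-fold and Nr5a2 with one of 69.5-fold. With spike-in scaling 6 of 11 were at least 4-fold above marrow and 2 at least 4-fold below it. Some calls between fetal liver and marrow depended on the probe. Hnf4a was at -0.08 on the log2 scale by its main probe, but its other 2 gave bounds of 5.93 and 2.08. Fgfr4 was at 5.35 by its main probe and at 0.57 and 1.53 by the others. Klb had a bound of 5.90 by its main probe and 1.22 by the other. Of the 7 uptake and conjugation genes compared between fetal liver and marrow, 2 were at least 4-fold above marrow and Slco2b1 was 22.2-fold below it. Over all 14677 genes compared, 9.33% were at least 4-fold higher in fetal liver and 8.30% higher in marrow. With spike-in scaling 1 of 5 uptake and conjugation genes was at least 4-fold above marrow and 3 were below it.

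**Figure D4:**
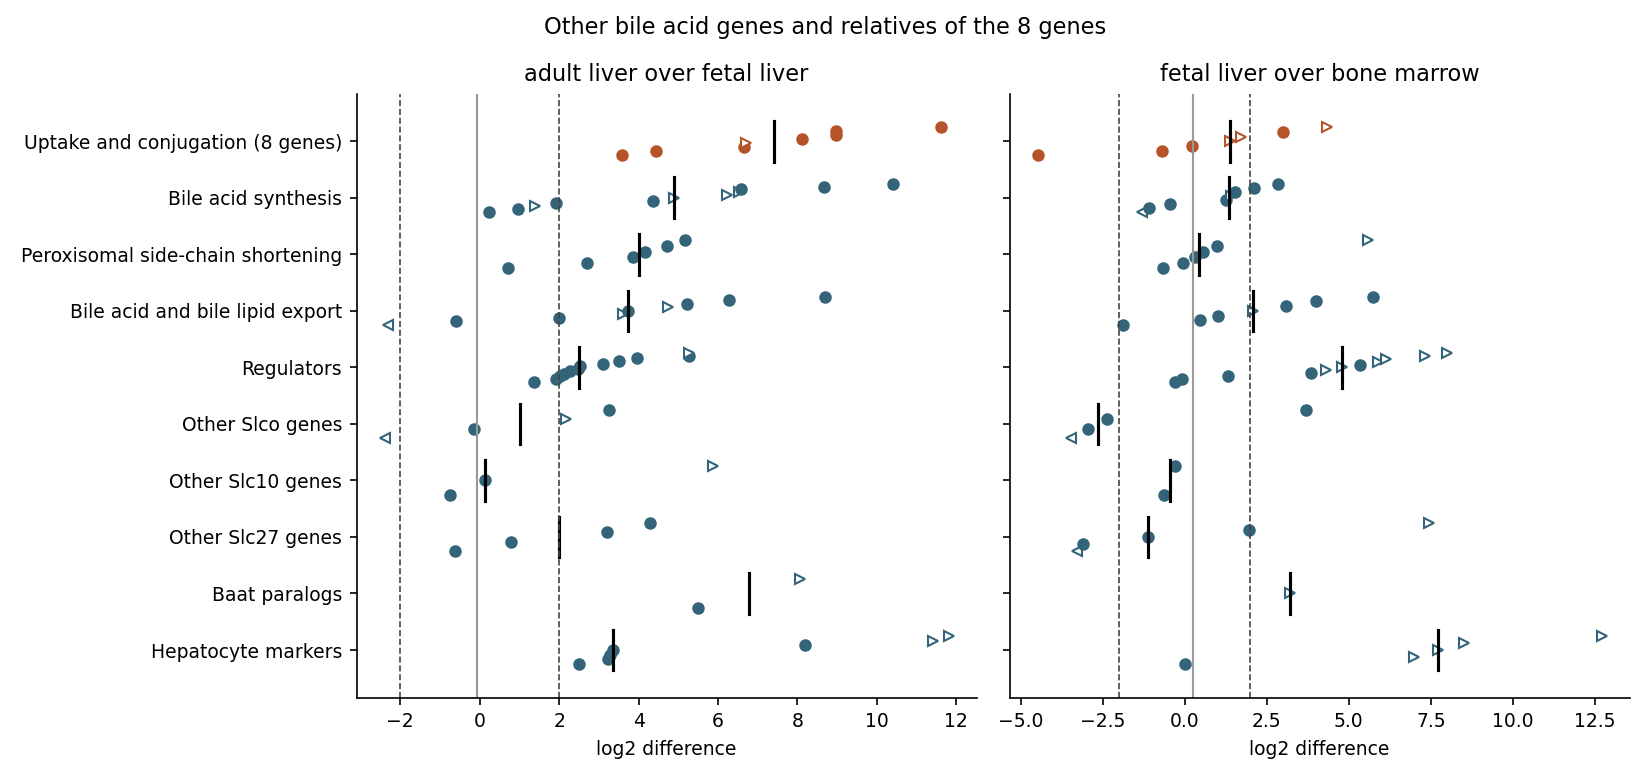
Log2 differences of single genes (points, open triangles for bounds) and the median of each list (black bar) for the 8 uptake and conjugation genes, 8 comparison lists and hepatocyte markers, adult liver over fetal liver on the left and fetal liver over bone marrow on the right. Dashed lines mark 4-fold and the grey line the median of all genes; between the livers the median of the 8 genes is 7.42, against 2.50 for the regulators, and between fetal liver and marrow it is 1.38, against 4.81.

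Relatives of the carriers did not share one pattern. In the RefSeq gene order, Slco1c1, Slco1b2, Slco1a4, Slco1a1, Slco1a6 and Slco1a5 follow each other on chromosome 6, apart from predicted genes between them. Slco1a6 and Slco1c1 were not well above background in any tissue, and Slco1a5 had 65.4 in adult liver, 18.9 in fetal liver (not well above background) and 35.1 in bone marrow, with a second probe dim throughout. Of the 11 other Slco genes, 4 could be compared between the livers, and Slco2a1, a prostaglandin carrier, and Slco1a5 passed 4-fold toward adult liver while Slco4a1 was at least 5.24-fold lower; with normexp Slco1a5 and Slco4a1 came within 4-fold, and with spike-in scaling Slco1a5 did. Against bone marrow, Slco3a1, Slco4a1 and Slco4c1 were at least 4-fold lower both in adult liver and in fetal liver, although Slco4c1 was not with normexp. Slco2a1 had 2500 in adult liver against 342 in fetal liver and 60.7 in bone marrow by its main probe; by its second, the differences were 1.48 between the livers and 1.45 between adult liver and marrow on the log2 scale.

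Slc10a2, the sodium-dependent carrier known from the ileum and the bile duct, was well above background in adult liver at 677, with 3.35 in fetal liver and 5.22 in bone marrow, at least 58.8-fold and at least 86.2-fold higher in adult liver. Its other 2 probes gave bounds of 2.83 and 2.87 on the log2 scale between the livers. Slc10a3 and Slc10a7 stayed within 4-fold in all comparisons on the main scaling, Slc10a4 and Slc10a6 were dim in all tissues, and Slc10a5 is not named here. Slc27a2, which activates very long-chain fatty acids and bile acids, had 26300 in adult liver against 1760 in fetal liver and 11.3 in bone marrow (not well above background), 19.5-fold higher in adult than in fetal liver. Another Slc27a2 probe gave a bound of 4.61 on the log2 scale between the livers, and the remaining probe was dim in all tissues. Slc27a4, a fatty acid carrier, was 9.22-fold higher in adult than in fetal liver, which was itself 8.54-fold below marrow. Its second probe was dim in both livers. Against marrow that probe gave bounds of -0.92 for adult liver and -2.01 for fetal liver on the log2 scale. Slc27a1 and Slc27a3 were within 4-fold throughout on the main scaling, and Slc27a6 (336 in marrow) was dim in both livers.

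The Baat relatives Acnat1 and Acnat2, which conjugate fatty acids with taurine, follow each other beside Baat on chromosome 4. Acnat1 had signals of 3330 in adult liver against 95.1 in fetal liver and 20.1 in bone marrow (not well above background), 45.6-fold higher in adult than in fetal liver. Acnat2 had 3110 in adult liver and was not well above background in fetal liver at 14.5 or in marrow at 4.75, at least 270-fold higher in adult than in fetal liver. Since these genes resemble Baat in sequence and no probe sequence was at hand, a share of one gene's signal that comes from another cannot be measured here, and the same holds for the Slco1a genes. On the other side of Baat, Mrpl50 (3070, 4460 and 3260) and Zfp189 (75.7, 93.1 and 134) were within 4-fold in all comparisons.

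For the 4 genes measured in all tissues, the profile over the 3 arrays was compared with those of 11688 such genes, by Euclidean distance of log2 values centred on their mean. The nearest to Slc10a1 were Cyp4v3, at a distance of 0.05, and Igf1 at 0.21, with 8 genes within 0.5. The scanner's errors of the log2 differences of Slc10a1 were 0.22 to 0.30, so the order of these 2 is not resolved. Near Slco1a4 stood D130020L05Rik and Olfr166, and near Amacr Fam20a, each with over 30 genes within 0.5. Slco2b1 had no gene within 0.5; the nearest were Aldh1a7 at 0.51 (24400 in adult liver against 96.6 in fetal liver and 3190 in bone marrow), followed by Cp, ceruloplasmin, at 1.21 (19100, 53.8 and 957). With 3 points a profile, such likeness describes these 3 RNA samples.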

How the data were processed

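Total RNA of 3 tissues was measured on 3 arrays of 45018 spots, all on 1 slide per the file headers. The submitters' processing notes name Agilent Feature Extraction 10.5.1.1. Per the file headers, the processed signal intensity was background-subtracted on the linear scale, with no normalization between arrays. The authors also deposited a table with a raw intensity, a normalized ratio and a fold ratio; its raw column was, within 1%, the scanner's error of the signal on 45018 of 45018 spots per array, so it was used only as an alternative. Log2 of the signal minus that of the array's 75th percentile was computed in Python 3.11.15 with pandas 2.3.3, leaving out 71 to 80 outlier spots an array. No spot of the 10 probes was saturated. Probes were named by accession, then by current or older symbol, and 8489 were left unnamed. A gene took the probe well above background on most arrays, then the brightest. Normexp came from limma 3.58.1 with an offset of 50. A 4-fold difference is a rule of size. With 1 array per tissue the number of arrays limits the precision and no test was possible; the fold computation was tested on simulated data. Named genes were the 8 genes, up to 3 of each list per tissue, all genes of short lists, close relatives, exceptions and the 2 nearest profiles. Members, lists and motifs were chosen with earlier results of these data known. Some genes and a motif that the rules would name are not reported here. Alternatives covered scaling, background, dim and outlier spots, probe choice, the threshold and the deposited table.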

Additional observations from a re-analysis of the deposited data

How the results depend on the processing

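The count of 8 genes at least 4-fold higher in adult than in fetal liver was 8 under every scaling, background, probe and threshold setting tried, except where dim probes were dropped, which left 7 genes to compare, all 7 higher. Their median log2 difference, 7.42, was 8.46 with dim signals as they stand, 6.11 with normexp, 8.12 with probes measured in both tissues and 6.70 with the other probe. Against bone marrow, the count of 8 became 4 of 4 with probes measured in both and 6 with spike-in scaling, which moved the median of all genes to -2.70. That median, 6.92, was 6.26 with the authors' deposited table, 7.97 with dim signals as they stand, 5.77 with normexp, 5.32 with probes measured in both and 4.10 with spike-in scaling. Between fetal liver and marrow, 5 genes passed with dim signals as they stand and 5 at 2-fold, against 3, and the median of 1.38 was 0.22 with the mean of all probes, -0.23 with probes measured in both and -2.10 with spike-in scaling. Dropping dim probes leaves fewer genes; other causes were not tested. Of 242 values for single genes, 188 moved by under 1.5-fold and 54 by more. Many of the 188 could not move. A gene with 1 probe keeps its value when probes are averaged or swapped. A difference measured in both tissues keeps its value when dim probes are dropped or taken as they stand. The 188 is therefore no measure of stability. Over all genes, called genes numbered 10462 (adult liver over marrow) and 8087 (fetal liver over marrow) with spike-in scaling, against 4815 and 2588, and 1701 with normexp for the latter pair. The percentage of called genes higher in the first tissue was 36.9, 8.12 and 3.91 with spike-in scaling, against 54.0, 55.6 and 52.9 (adult over fetal, adult over marrow, fetal over marrow), and 45.4 and 38.8 for the marrow pairs with median scaling. Fetal and marrow signals of most carriers lie near background, where order is not resolved. No paired analysis was possible because each group has 1 sample.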
